A study of Mus musculus with 9 samples.

Results

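The genes described here are imprinted genes of the mouse: genes transcribed mainly from the copy inherited from 1 parent, because the parental copies carry different DNA methylation at control regions. A list of 33 such genes was matched by symbol to the Ensembl gene identifiers of the 3 tables of group comparisons. The matching used no measured value, but the list was chosen with earlier results of these data known. Of the 33, 31 were found among the 15300 genes measured. Ascl2 and Snrpn were not found under the identifiers of the GENCODE M21 annotation and were left out. That annotation covered 15192 of the 15300 genes, and other identifiers of Ascl2 and Snrpn were not searched. Whether these genes were measured is therefore not known. The 31 lie in 16 imprinted domains, and 8 domains had more than 1 measured member. By textbook assignment 21 are expressed from the paternal copy, 9 from the maternal copy, and Gnas, whose allelic use depends on the tissue, was put in neither class. Allele-specific reads are not analysed here, so each value is the total of both copies.

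The samples were gonads freed of the mesonephros from C57BL/6 fetuses at E13.5, a stage given as embryonic days, in 3 groups of 3. All 3 groups carried floxed alleles of Sox9 (Sox9flox/flox), the gene of a transcription factor that directs testis formation. XX-WT were ovaries without Cre and XY-WT were testes without Cre. XY-KO were testes that also carried AMH-Cre, a Cre recombinase driven by the promoter of the anti-Müllerian hormone gene, which is active in Sertoli cells, the supporting cells of the testis; deletion is therefore limited to cells that have switched that promoter on. Whether a sample was 1 fetus or a pool is not in the labels, so p-values measure only the spread between these samples. The question put by the series is what SOX9 does in the fetal testis, and the tables compare XY-KO with XY-WT, XX-WT with XY-WT, and XY-KO with XX-WT. The 3 comparisons share samples and are given side by side.

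Imprinted genes are known chiefly for balancing fetal growth. In general, paternally expressed members such as Igf2 promote growth and maternally expressed members such as Cdkn1c, Grb10, Phlda2 and Igf2r restrain it. Within a domain, a long noncoding RNA made from the copy on which the protein-coding genes are silent is a common arrangement, as with H19, Kcnq1ot1, Airn and Meg3. In the fetal gonad the germ cells erase parental imprints at about the stage sampled here, while the supporting, interstitial and endothelial cells keep them. These were whole gonads, so fewer cells of a type and less RNA per cell cannot be told apart in any value below.

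Sequences are shown first for the domains in which members moved together or by the largest amount. The 4 windows below are promoters from RefSeq (GRCm38.p6), written 5′ to 3′ on the strand of the gene, each with 250 bases before the annotated start and 50 bases from the start on. Capitals mark the hexamer TGCCGC or its reverse complement GCGGCA, the letters bound by the imprint-keeping protein ZFP57 when they are methylated. The Peg3 window is chr7:6730370-6730669 (minus strand, 13 CpG), the Zim1 window chr7:6696383-6696682 (minus strand, 20 CpG), the Phlda2 window chr7:143502475-143502774 (minus strand, 26 CpG) and the Meg3 window chr12:109540746-109541045 (plus strand, 13 CpG). Peg3 and Zim1 are neighbours expressed from opposite parental copies.
Peg3: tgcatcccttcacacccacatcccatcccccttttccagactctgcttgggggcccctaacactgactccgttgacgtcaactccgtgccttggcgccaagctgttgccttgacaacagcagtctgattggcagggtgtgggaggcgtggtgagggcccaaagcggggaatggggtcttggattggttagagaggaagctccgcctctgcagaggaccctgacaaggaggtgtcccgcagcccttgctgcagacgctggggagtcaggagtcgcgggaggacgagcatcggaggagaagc
Zim1: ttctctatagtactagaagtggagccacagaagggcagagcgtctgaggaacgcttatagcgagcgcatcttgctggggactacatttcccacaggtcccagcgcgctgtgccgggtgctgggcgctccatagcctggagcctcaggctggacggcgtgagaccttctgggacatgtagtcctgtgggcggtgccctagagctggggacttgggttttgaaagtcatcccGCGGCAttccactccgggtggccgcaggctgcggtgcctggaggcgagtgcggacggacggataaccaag
Phlda2: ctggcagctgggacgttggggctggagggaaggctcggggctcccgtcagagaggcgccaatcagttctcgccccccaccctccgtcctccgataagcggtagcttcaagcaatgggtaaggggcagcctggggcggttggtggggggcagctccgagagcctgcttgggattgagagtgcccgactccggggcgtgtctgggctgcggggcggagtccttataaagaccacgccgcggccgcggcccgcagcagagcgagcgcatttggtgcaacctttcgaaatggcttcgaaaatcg
Meg3: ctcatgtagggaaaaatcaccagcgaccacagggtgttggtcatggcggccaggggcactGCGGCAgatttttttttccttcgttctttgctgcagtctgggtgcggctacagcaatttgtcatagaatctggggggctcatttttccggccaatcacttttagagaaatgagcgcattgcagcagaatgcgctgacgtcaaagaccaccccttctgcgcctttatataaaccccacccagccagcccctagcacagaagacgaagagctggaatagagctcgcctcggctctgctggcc

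The Zim1 and Meg3 windows shown held 1 match each and the Peg3 and Phlda2 windows held 0. Another Meg3 window, chr12:109545148-109545447 (plus strand, 1 CpG), is not shown and held 0. Of the 31 measured members, 24 had a window in the RefSeq table, with 37 windows in all. The hexamer, searched on both strands, stood in 9 of these 37 windows (24.3%), belonging to 8 members: Grb10, Igf2, Meg3, Mest, Nnat, Plagl1, Zdbf2 and Zim1. Over all 32851 windows of the same length it stood in 11.6%. The member windows also had more CpG dinucleotides, with a median of 13 against 7 over all windows, and the hexamer itself contains a CpG. The SOX core letters AACAAT stood in 5 of the 37 windows (Gnas, Igf2, Magel2 and Peg12) against 10.7% of all windows, and AACAAAG stood in 0 of the 37 against 5.85% of all. A core motif of CTCF stood in 0 of the 37, and in 12 of all windows. These are matches of letters in a short window and not measured binding.

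Several of the noncoding members are host transcripts of microRNAs, and the mature RNAs below are examples read from RefSeq within the gene bodies, with the seed (bases 2 to 8) in capitals. H19 and Meg3 hold 1 hairpin each on their own strand, Rian holds 3 and Mirg holds 14. The 2 mature RNAs mmu-miR-453 and mmu-miR-496a-5p, both inside Mirg, share the seed GGUUGCC. Only the host transcripts were measured here.
mmu-miR-675-3p (in H19): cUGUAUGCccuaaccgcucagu
mmu-miR-770-5p (in Meg3): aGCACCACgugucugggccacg
mmu-miR-370-3p (in Rian): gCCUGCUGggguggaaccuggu
mmu-miR-453 (in Mirg): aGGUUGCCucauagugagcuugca
mmu-miR-496a-5p (in Mirg): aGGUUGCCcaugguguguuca

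The deleted gene checked the labels. Sox9 was lower in XY-KO than in XY-WT by a log2 fold change of -2.76 (SE 0.17, adjusted p = 8.93e-07, limma) and in XX-WT by -4.47 in the authors' deposited tables. Among 17 Sertoli markers, 10 were lower in XY-KO than in XY-WT at adjusted p under 0.05, and 16 were lower and 1 higher (Wt1) in XX-WT. Of 11 markers of pre-granulosa cells, the supporting cells of the ovary, 9 were higher and 1 lower (Esr2) in XX-WT than in XY-WT. In XY-KO against XY-WT 1 was called, lower (Lgr5). Fetal Leydig markers, 7 measured, had 0 calls by limma in XY-KO against XY-WT, also at an unadjusted p under 0.05, and 7 lower in XX-WT. Of 14 germ cell markers 9 were higher and 1 lower in XX-WT than in XY-WT, and their summed derived level was 496 CPM (counts per library, scaled to a fixed total) in XY-WT, 399 CPM in XY-KO and 748 CPM in XX-WT. Of 13 interstitial markers 9 were lower in XX-WT than in XY-WT. In XY-KO against XY-WT 1 of them was higher and 2 lower, and they summed to 1010, 942 and 467 CPM in the same order of groups. Skeletal muscle genes, of which 12 of 26 were measured without Myod1, Myog or Myf5, summed to 42.9, 81.0 and 88.3 CPM in the same order, with 2 called higher in XY-KO (Myh8 and Myl1) and 5 in XX-WT. The 6 measured mesonephric markers summed to 72.6, 93.7 and 212 CPM, with 0 limma calls in XY-KO (2 at an unadjusted p under 0.05) and 5 higher and 1 lower in XX-WT. The part of these other cell types in the differences below was not tested.

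Values of single samples are not analysed here, and the depth of each sample is unknown from the tables. Each level below is a group level derived from the deposited mean log2 expression and fold changes, with the groups weighted equally and the scale taken as log2 CPM. The standard error (SE) of a log2 fold change is the deposited fold change divided by its deposited t. A gene is called where the authors' limma adjusted p, computed over all 15300 genes, was under 0.05.

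Imprinted genes were well represented among abundant transcripts of the fetal gonad. The deposited mean log2 expression of the 31 members had a median of 5.38, against 3.19 over all genes, and 24 of the 31 lay at or above that all-gene median. Per kilobase of exon, the most abundant member in XY-WT was Mest, at 7.60 log2 CPM per kb, followed by H19 (7.34), Igf2 (6.95), Peg3 (6.56) and Peg10 (5.99). The same 5 genes, with Plagl1, also held the first 6 places in XY-KO and in XX-WT, where H19 ranked first. The lowest members in XY-WT were Magel2 (-1.26), Usp29 (-1.70) and Phlda2 (-3.06). Phlda2 was the member whose place moved most, from 31 of 31 in both testis groups to 17 of 31 in the ovary. Summed over all 31, the derived level was 6174 CPM in XY-WT, 6826 CPM in XY-KO and 7936 CPM in XX-WT.

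**Figure D1:**
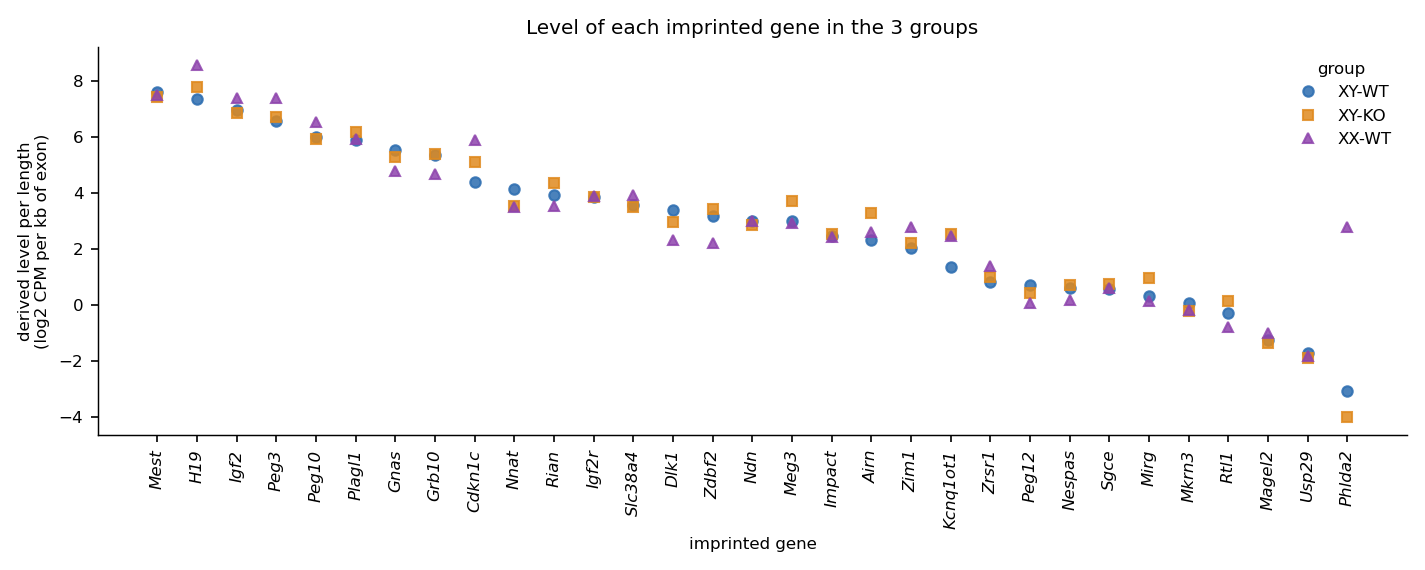
Derived level of each of the 31 measured imprinted genes in XY-WT (circles), XY-KO (squares) and XX-WT (triangles), in log2 CPM per kb of exon, ordered by the XY-WT level; points are group levels and carry no error bar. Mest, H19, Igf2 and Peg3 hold the first 4 places in each group, and the levels of Phlda2 are -3.06 in XY-WT, -4.00 in XY-KO and 2.78 in XX-WT.

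Few of these genes differed between the mutant and the control testis. In XY-KO against XY-WT, 2 of 31 members were called, both higher (Cdkn1c and Meg3), which is 6.45%. Over all genes 2.27% were called in either direction and 0.699% were called higher and 1.57% lower. At an unadjusted p under 0.05 there were 8 members. The share of all genes at that unadjusted threshold was not counted, so this and the other unadjusted counts have no baseline beside them. The median log2 fold change of the 31 was 0.075 against -0.011 over all genes. In XX-WT against XY-WT 13 of 31 were called, 9 higher and 4 lower, which is 41.9% against 23.3% of all genes, of which 10.9% were higher and 12.4% lower. In XY-KO against XX-WT 15 of 31 were called, 7 higher and 8 lower, which is 48.4% against 18.3% of all genes (9.16% higher and 9.11% lower). Among genes at or above the median expression, where most members lie, the shares called were 2.44%, 24.2% and 18.3%, against 2, 12 and 13 of the 24 members there. With a 2-fold limit added, 5 of 31 were called in XX-WT against XY-WT beside 12.0% of all genes. In XY-KO against XX-WT that limit left 2 of 31 beside 10.1% of all genes, so the members' share was then below that of all genes. Cdkn1c was the single member called in all 3 comparisons, 10 members were called in both comparisons with the ovary, and 13 were called in none.

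**Figure D2:**
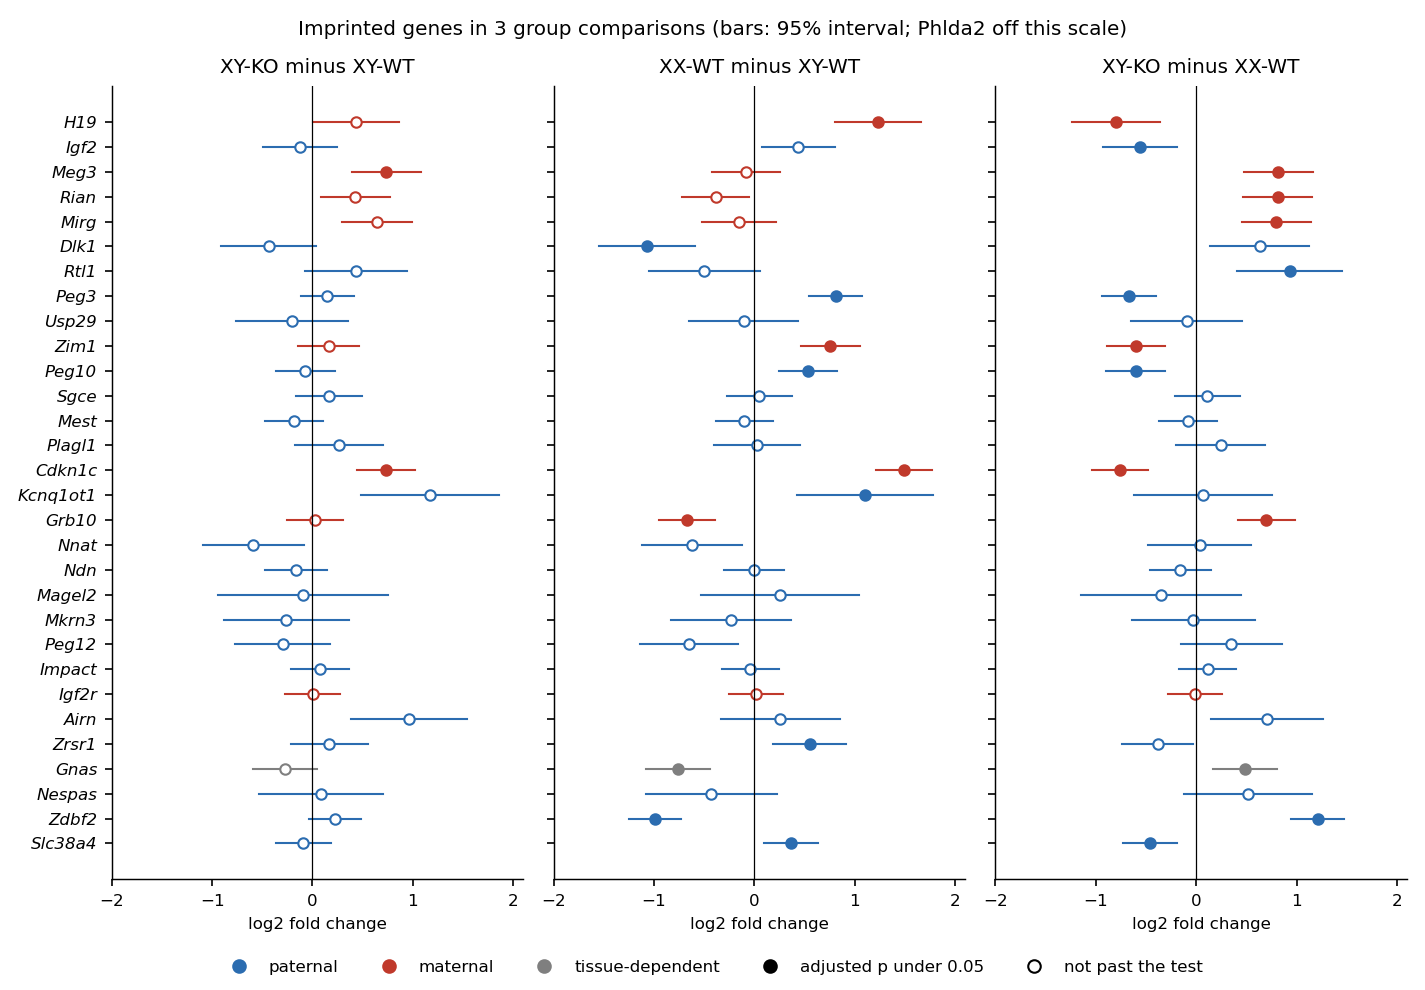
Log2 fold change of each member in the 3 comparisons, with bars for the 95% interval; filled points have a limma adjusted p under 0.05 and colours give the expressed allele. Phlda2 (-0.94, 5.84 and -6.78) lies off the scale and is not drawn; Cdkn1c is filled in all 3 panels, and Meg3 and Cdkn1c are the filled points on the left.

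Cdkn1c rose in the mutant testis and rose further in the ovary. It encodes p57, an inhibitor of cyclin-dependent kinases expressed from the maternal copy (ENSMUSG00000037664, chr7:143458339-143461050, minus strand, GRCm38). Its derived level was 42.6 CPM in XY-WT, 70.7 CPM in XY-KO and 120 CPM in XX-WT. The authors' deposited table gave a log2 fold change of 0.73 (SE 0.14, adjusted p = 0.0082, limma) for XY-KO against XY-WT, a 1.66-fold rise. For XX-WT against XY-WT the deposited table gave 1.49 (SE 0.13, adjusted p = 7.68e-07), or 2.81-fold, and XY-KO lay below XX-WT by -0.76 (SE 0.13, adjusted p = 0.000596). The mutant testis therefore had a level between those of the control testis and the ovary, and apart from both. The other inhibitors of the same family, looked up after the Cdkn1c values were seen, were higher in XX-WT in the deposited table, Cdkn1a by 1.74 and Cdkn1b by 1.94. In XY-KO against XY-WT the deposited values were -0.55 for Cdkn1a (adjusted p = 0.219) and -0.011 for Cdkn1b (adjusted p = 0.98), and neither was called.

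The 3 measured members of the Kcnq1 domain, to which Cdkn1c belongs, were each called higher in the ovary. Other genes of that region, counted in a later list, did not all move this way in XX-WT against XY-WT. In the deposited table Kcnq1 (2.78) and Slc22a18 (2.81) were called higher, and Cd81 (-0.87) and Tssc4 (-0.75) lower. The call of Tssc4 lay at the edge of the limma threshold, with an adjusted p of 0.04997, beside 0.000309 for Cd81. Nap1l4 (0.16), Osbpl5 (-0.010) and Tspan32 (-0.90) were not called. Phlda2, a maternally expressed gene for a pleckstrin-homology protein that limits placental growth (ENSMUSG00000010760, chr7:143501545-143503150), gave the biggest difference of the 31. Its derived log2 CPM was -2.90 in XY-WT, -3.84 in XY-KO and 2.94 in XX-WT, so both testis groups were near the bottom of the measured range. The deposited log2 fold change for XX-WT against XY-WT was 5.84 (SE 0.60, adjusted p = 3.73e-06, limma, authors' deposited table), and for XY-KO against XX-WT it was -6.78 (SE 0.67, adjusted p = 3.01e-06). At levels so low a log2 fold change depends on the offset used by the authors, which is not given in the sources used here, and no fold is printed. Between the 2 testis groups the deposited value was -0.94 with an SE of 0.88 (adjusted p = 0.601), which cannot place Phlda2 higher or lower.

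Kcnq1ot1, the paternally expressed antisense RNA that silences this domain on the paternal copy (chr7:143203458-143296549), had derived levels of 239 CPM in XY-WT, 536 CPM in XY-KO and 512 CPM in XX-WT. It was called higher in XX-WT, at 1.10 (SE 0.32, adjusted p = 0.02, limma) in the authors' deposited table, and the XY-KO value of 1.17 (SE 0.32, adjusted p = 0.0731) was as large but did not pass. Its annotated exon length was 93092 bases. When a trend of fold change with GC content and length, fitted over all genes, was subtracted, the XX-WT value became 0.24 with an adjusted p of 0.652, and the XY-KO value became 0.67 with an adjusted p of 0.333. The trend subtracted for Kcnq1ot1 was 0.50 in XY-KO and 0.87 in XX-WT against XY-WT, and -0.13 in XY-KO against XX-WT. These do not add up as the fold changes do, so the subtracted values of so long a transcript are uncertain. Kcnq1ot1 lies antisense to Kcnq1, and whether the counting used strand is not given in the sources used here, so reads of the pair cannot be told apart.

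In the Igf2-H19 domain both members were at their highest in the ovary. H19, a maternally expressed noncoding RNA (ENSMUSG00000000031, chr7:142575529-142578143), had derived levels of 398 CPM in XY-WT, 538 CPM in XY-KO and 935 CPM in XX-WT. It rose in XX-WT against XY-WT by 1.23 (SE 0.20, adjusted p = 0.00033, limma) in the authors' deposited table, or 2.35-fold. XY-KO was lower than XX-WT by -0.80 (SE 0.21, adjusted p = 0.0128), and the XY-KO value against XY-WT, 0.43 (SE 0.20), missed the threshold at an adjusted p of 0.261 (deposited table). Igf2, the paternally expressed growth factor of the pair (ENSMUSG00000048583, chr7:142650766-142666816), had derived levels of 708, 651 and 960 CPM. Its deposited values were -0.12 (SE 0.17, adjusted p = 0.752) for XY-KO and 0.44 (SE 0.17, adjusted p = 0.0777) for XX-WT against XY-WT, both short of the test. With a fitted trend of GC content and length subtracted, the XX-WT value of Igf2 became 0.62 and was called. XY-KO was lower than XX-WT for Igf2, at -0.56 (SE 0.17, adjusted p = 0.0352, authors' deposited table). The growth factor and the noncoding RNA were thus both called lower in the mutant testis than in the ovary, and neither was called between the testis groups.

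The Dlk1-Meg3 domain on chromosome 12 held RNAs that were highest in the mutant testis. Its maternal copy makes the noncoding RNAs Meg3, Rian and Mirg, and its paternal copy makes Dlk1, a membrane protein related to Notch ligands, and Rtl1, a retrotransposon-derived protein. Meg3 (ENSMUSG00000021268, chr12:109541001-109571726) had derived levels of 144 CPM in XY-WT, 239 CPM in XY-KO and 136 CPM in XX-WT. It rose in XY-KO against XY-WT by 0.74 (SE 0.16, adjusted p = 0.0241, limma) and against XX-WT by 0.82 (SE 0.16, adjusted p = 0.00193) in the authors' deposited tables. The level was thus higher in the mutant testis than in either control gonad, and the 2 controls differed by -0.080 with a 95% interval from -0.42 to 0.26. With the GC content and length trend subtracted, the XY-KO call of Meg3 was lost (0.65, adjusted p = 0.0569) and that of Mirg was gained (0.75, adjusted p = 0.0307).

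Rian and Mirg were also highest in XY-KO. Rian had derived levels of 277, 372 and 212 CPM in XY-WT, XY-KO and XX-WT, and Mirg had 9.03, 14.1 and 8.11 CPM. Against XY-WT the deposited values for XY-KO were 0.43 for Rian (SE 0.16, adjusted p = 0.171) and 0.64 for Mirg (SE 0.16, adjusted p = 0.0541), neither past the test. Against XX-WT both rose, Rian by 0.81 (SE 0.16, adjusted p = 0.00203) and Mirg by 0.80 (SE 0.16, adjusted p = 0.00243, limma, authors' deposited table). The 3 maternal RNAs therefore had nearly the same deposited log2 fold change between mutant testis and ovary, from 0.80 to 0.82.

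The 2 paternally expressed members of the domain followed different orders. Dlk1 had derived levels of 58.9 CPM in XY-WT, 43.6 CPM in XY-KO and 28.1 CPM in XX-WT, and it fell in XX-WT against XY-WT by 1.07 on the log2 scale (SE 0.23, adjusted p = 0.00259, limma) in the authors' deposited table. Its XY-KO value against XY-WT was -0.44 (SE 0.22, adjusted p = 0.301, deposited table). Rtl1, at 5.23, 7.07 and 3.70 CPM, had a deposited 0.43 (SE 0.24, adjusted p = 0.338) in XY-KO against XY-WT and rose against XX-WT by 0.93 (SE 0.25, adjusted p = 0.0141). Within Rtl1 lie 6 microRNA hairpins on the opposite strand, with the same limit on strand as for Kcnq1ot1. Reads counted for Rtl1 may thus include RNA of that strand. Against the ovary, 4 of the 5 members were called higher in XY-KO and the fifth, Dlk1, had 0.63 (SE 0.23, adjusted p = 0.0711, deposited table). Between the 2 testis groups the 4 members other than Dlk1 had positive values and Dlk1 a negative value.

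**Figure D3:**
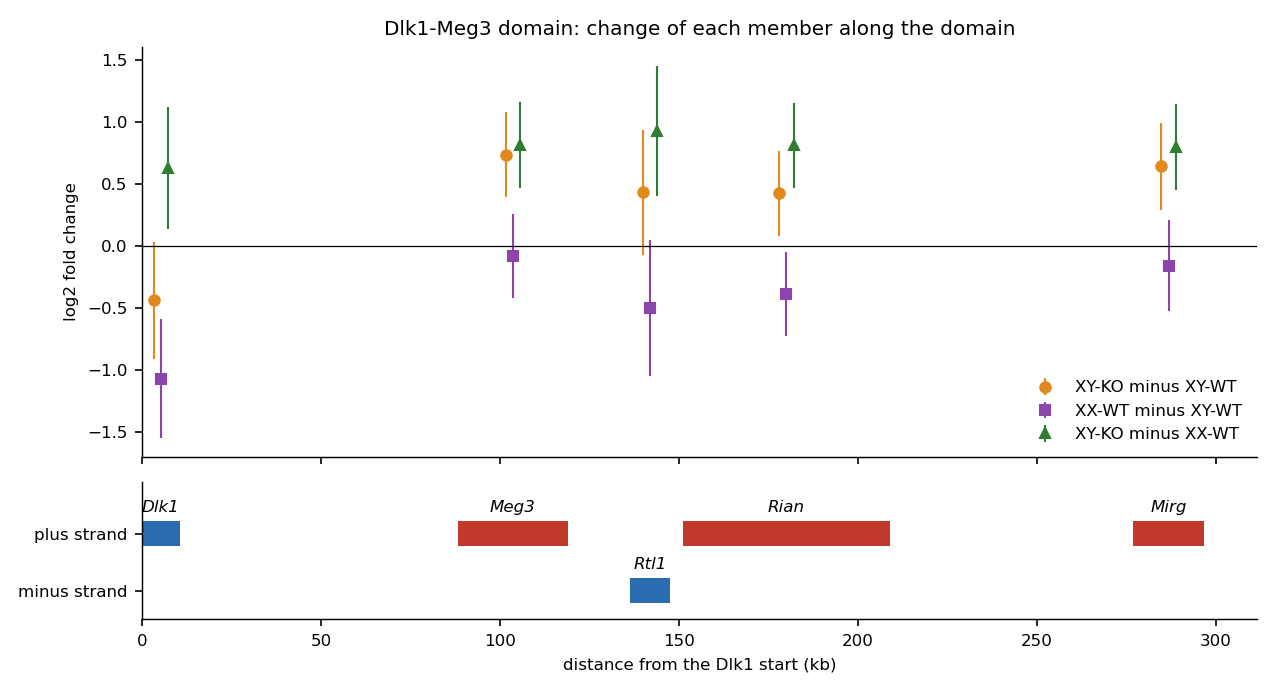
Log2 fold change of the 5 measured members of the Dlk1-Meg3 domain in the 3 comparisons, with 95% intervals, placed at their distance in kb from the start of Dlk1, with gene bodies on each strand drawn to scale beneath (paternally expressed in blue, maternally expressed in red). The triangles (XY-KO minus XX-WT) all lie above 0, from 0.63 to 0.93, and the squares (XX-WT minus XY-WT) all lie below it.

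In the Peg3 domain 2 of 3 measured members, Peg3 and Zim1, rose in the ovary, and no member passed the limma test in the mutant against the control testis, also at an unadjusted p under 0.05. Peg3, a paternally expressed zinc finger gene (ENSMUSG00000002265, chr7:6703892-6730431), had derived levels of 1261 CPM in XY-WT, 1396 CPM in XY-KO and 2214 CPM in XX-WT. In the authors' deposited table it rose by 0.81 (SE 0.12, adjusted p = 0.00016, limma) in XX-WT against XY-WT, while XY-KO lay below XX-WT by -0.67 (SE 0.13, adjusted p = 0.00139). Zim1, the maternally expressed zinc finger gene beside it (ENSMUSG00000002266, chr7:6671269-6696450), had 33.2, 37.1 and 56.2 CPM and rose in XX-WT by 0.76 (SE 0.14, adjusted p = 0.000793, deposited table). XY-KO was lower than XX-WT for Zim1 too, at -0.60 (SE 0.14, adjusted p = 0.00558). The pair of opposite allelic expression thus had log2 fold changes of 0.81 and 0.76 in the same direction. Usp29, which shares the start region of Peg3 and is also paternally expressed, had 5.55, 4.83 and 5.15 CPM and was called in 0 of the 3 deposited comparisons, with -0.11 (SE 0.26, adjusted p = 0.801) in XX-WT. Between the testis groups the deposited values were 0.15 for Peg3 (adjusted p = 0.559) and 0.16 for Zim1 (adjusted p = 0.581).

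Other members also rose in the ovary. Peg10, a retrotransposon-derived gene needed in the placenta, had derived levels of 423, 403 and 612 CPM in XY-WT, XY-KO and XX-WT and rose in XX-WT against XY-WT by 0.53 (SE 0.14, adjusted p = 0.00976, limma, authors' deposited table). In the same table set it was lower in XY-KO than in XX-WT, at -0.60 (SE 0.14, adjusted p = 0.00579). Its paternally expressed neighbour Sgce, which encodes epsilon-sarcoglycan, had 15.8, 17.7 and 16.3 CPM and was not called, with deposited values of 0.16, 0.051 and 0.11 in the 3 comparisons. Slc38a4, an amino acid transporter, had 50.7, 47.5 and 65.4 CPM. It was called higher in XX-WT by 0.37 (SE 0.13, adjusted p = 0.0468) and lower in XY-KO than in XX-WT by -0.46 (SE 0.13, adjusted p = 0.0186) in the authors' deposited tables. The XX-WT call of Slc38a4 was lost with the GC content and length trend subtracted (adjusted p = 0.069). Zrsr1, a retrogene of a splicing factor lying inside Commd1, had 8.02, 9.01 and 11.7 CPM and rose in XX-WT by 0.55 (SE 0.17, adjusted p = 0.0299, deposited table). Reads of Zrsr1 may be shared with its related copy and with Commd1.

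A smaller set fell in the ovary. Zdbf2, a paternally expressed zinc finger gene (ENSMUSG00000027520, chr1:63273265-63314576), had derived levels of 116 CPM in XY-WT, 135 CPM in XY-KO and 58.3 CPM in XX-WT. It fell by 0.99 on the log2 scale (SE 0.12, adjusted p = 2.35e-05, limma) in XX-WT against XY-WT in the authors' deposited table. XY-KO was higher than XX-WT by 1.21 (SE 0.12, adjusted p = 4.62e-06), or 2.31-fold, and the value against XY-WT, 0.22 (SE 0.12, adjusted p = 0.341), did not pass. Grb10, a maternally expressed adaptor that binds the insulin and IGF1 receptors and restrains growth, had 373, 379 and 234 CPM. It fell by 0.67 on the log2 scale (SE 0.13, adjusted p = 0.00133) in XX-WT against XY-WT and was higher in XY-KO than in XX-WT by 0.70 (SE 0.13, adjusted p = 0.0014, authors' deposited table). Between the testis groups Grb10 differed by 0.024 with a 95% interval from -0.26 to 0.30. Gnas, which encodes the alpha subunit of the stimulatory G protein, had 521, 431 and 308 CPM. The deposited table gave it -0.76 (SE 0.15, adjusted p = 0.00148) in XX-WT against XY-WT and 0.49 (SE 0.15, adjusted p = 0.0352) in XY-KO against XX-WT. The Gnas value is for the whole gene, which has several annotated starts. Its paternally expressed antisense partner Nespas, at 4.79, 5.09 and 3.56 CPM, was not called in any comparison. The Gnas and Nespas genes overlap on opposite strands, with the same limit on strand as for Kcnq1ot1.

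The 13 members without a call included some of the most abundant. Mest, a paternally expressed gene for a hydrolase-like protein, had 764, 672 and 712 CPM, with deposited values of -0.19 (95% interval -0.47 to 0.10) in XY-KO and -0.10 (-0.38 to 0.18) in XX-WT against XY-WT. Plagl1, a zinc finger transcription factor, had 465, 560 and 474 CPM, and its intervals were wider, from -0.17 to 0.71 in XY-KO and from -0.41 to 0.46 in XX-WT. Igf2r, the maternally expressed receptor that carries IGF2 to the lysosome, was the steadiest, at 136 CPM in both testis groups and 137 CPM in the ovary. Its log2 fold change was 0.0021 (95% interval -0.27 to 0.27) in XY-KO and 0.014 (-0.25 to 0.28) in XX-WT against XY-WT in the deposited tables. Airn, the antisense RNA that silences Igf2r on the paternal copy, had 18.1, 35.3 and 21.7 CPM and a deposited 0.96 (SE 0.27, adjusted p = 0.0793) in XY-KO against XY-WT. The Igf2r and Airn genes overlap on opposite strands, with the same limit on strand as for Kcnq1ot1.

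The Snrpn-Ndn domain had 0 limma calls among 4 measured members in each comparison. The all-gene shares beside this were 2.27% in XY-KO and 23.3% in XX-WT against XY-WT, and 18.3% in XY-KO against XX-WT. Counts over only 4 members cannot set the domain apart from all genes. At an unadjusted p under 0.05 the domain had 1, Peg12 in XX-WT against XY-WT. Ndn, a MAGE family gene, had 29.8, 26.6 and 29.7 CPM, and its deposited values were -0.16 (95% interval -0.47 to 0.14) in XY-KO and -0.0057 (-0.31 to 0.29) in XX-WT against XY-WT. Magel2, Mkrn3 and Peg12 were low, between 1.81 and 4.37 CPM over the 3 groups. Peg12 came nearest to the threshold of all members without a call, with -0.65 (SE 0.23, adjusted p = 0.0537) in XX-WT, from the authors' deposited table. Nnat, which encodes neuronatin and lies inside Blcap, had 31.8, 21.1 and 20.7 CPM, and its deposited values were -0.59 (SE 0.24, adjusted p = 0.195) in XY-KO and -0.62 (SE 0.23, adjusted p = 0.0665) in XX-WT. Impact, a translational regulator, had 28.2, 29.7 and 27.4 CPM and no call.

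Set by the expressed allele, the medians of the 2 classes lay furthest apart in the mutant testis. In XY-KO against XY-WT, 2 of 9 maternally expressed members were called, both higher, and 0 of 21 paternally expressed members were called. These shares are 22.2% and 0%, beside 2.27% of all genes. At an unadjusted p under 0.05 the counts were 5 of 9 and 3 of 21. The median log2 fold change was 0.43 for the maternal class and -0.071 for the paternal class, against -0.011 over all genes. Of the 9 maternal members 8 had a positive value, with Phlda2 the exception, and of the 21 paternal members 10 had. Over all genes 7399 of 15300 had a positive value. Among the 8, Igf2r (0.0021, SE 0.13) and Grb10 (0.024, SE 0.13) had values smaller than their SE. The difference of the medians, paternal minus maternal, was -0.50, and it shrank to -0.18 when the GC content and length trend was subtracted. Of the 9 maternal members 4 are noncoding RNAs and 3 of these come from the Dlk1-Meg3 domain, so the class median rests on few independent domains.

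In the comparisons with the ovary the class medians lay close together as the classes were set, and their difference moved with the choice of members. In XX-WT against XY-WT, 4 maternal members were called higher and 1 lower of 9, and 5 paternal members higher and 2 lower of 21. These shares are 55.6% and 33.3%, beside 23.3% of all genes. The medians were 0.014 for the maternal and -0.0057 for the paternal class. In XY-KO against XX-WT, 8 of 9 maternal members were called, 4 in each direction, and Igf2r was the exception. Of the 21 paternal members 6 were called, 2 higher and 4 lower. The shares are 88.9% of the maternal and 28.6% of the paternal class, beside 18.3% of all genes. The medians were -0.012 and 0.034. Leaving Grb10 out of the maternal class, since it is paternally expressed in neurons, moved the differences of the medians from -0.020 to -0.39 in XX-WT against XY-WT and from 0.046 to 0.34 in XY-KO against XX-WT. In the latter the difference turned negative, to -0.20 with Gnas counted as maternal and to -0.31 without members below the median expression. No test over the members was made, since genes of a domain are not replicates.

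**Figure D4:**
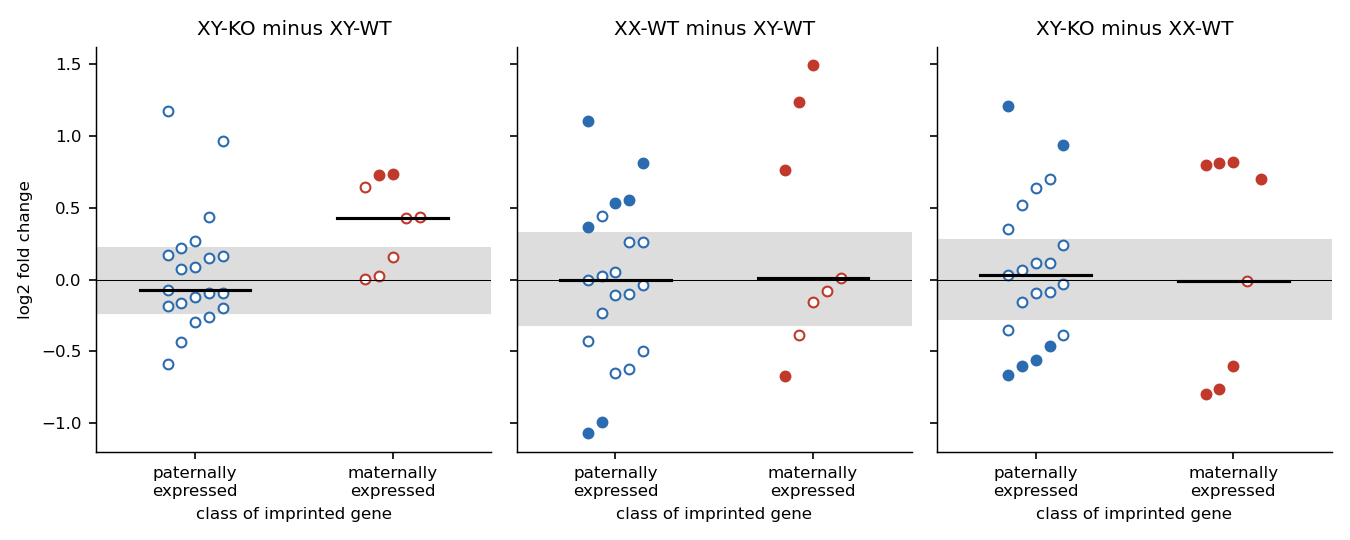
Log2 fold change of each paternally expressed (blue) and maternally expressed (red) member in the 3 comparisons; horizontal bars are class medians, filled points have a limma adjusted p under 0.05, and the grey band is the middle 50% of all genes. Phlda2 counts in the medians but lies off the scale; in the left panel the maternal median of 0.43 lies above the band and the paternal median of -0.071 inside it.

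The 7 noncoding members (H19, Meg3, Rian, Mirg, Kcnq1ot1, Airn and Nespas) each had a positive log2 fold change in XY-KO against XY-WT, from 0.087 for Nespas to 1.17 for Kcnq1ot1, with a median of 0.64. Meg3 was the 1 called, and 6 had an unadjusted p under 0.05. With the trend subtracted, the value of Kcnq1ot1 became 0.67, with the limit on its fitted trend given above. Other groups also had a single sign: the 4 measured members of the Snrpn-Ndn domain all had negative values, none called. The 24 protein-coding members had a median of -0.082, with 11 positive and 1 called (Cdkn1c). Malat1 and Neat1, noncoding RNAs held in the nucleus and not imprinted, were looked up after these values were seen. Malat1 was 1.09 higher in XY-KO (SE 0.27, adjusted p = 0.0488) and Neat1 had 1.16 (SE 0.29, adjusted p = 0.0513), both from the authors' deposited table. Their part in the values of the imprinted noncoding RNAs was not tested.

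Genes of IGF signalling, through which several imprinted members act on growth, were counted from a list of 22, of which 17 were measured. In XY-KO against XY-WT 1 was called, higher, which is 5.88% beside 2.27% of all genes. In XX-WT against XY-WT 3 were higher and 6 lower, which is 52.9% beside 23.3% of all genes. Against XX-WT, XY-KO had 5 higher and 3 lower, which is 47.1% beside 18.3% of all genes. The medians were -0.14, -0.22 and 0.087, against -0.011, 0.0041 and -0.0028 over all genes. Pappa, a protease that frees IGF from its binding proteins, was the call in XY-KO, at 0.67 (adjusted p = 0.0194, limma), and it was -2.27 in XX-WT (adjusted p = 1.04e-07) in the authors' deposited tables. In XX-WT against XY-WT the growth factor gene Igf1 rose by 1.10 (adjusted p = 1.38e-05) and the binding protein gene Igfbp2 by 1.26 (adjusted p = 2.19e-05), while Igfbp7 had -2.75 (adjusted p = 6.06e-09, deposited table). In XY-KO against XX-WT the smallest adjusted p belonged to Pappa (2.94), Igfbp7 (2.38), Igfbp2 (-1.87) and Htra1 (1.33), as log2 fold changes in the deposited table.

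Of 68 other imprinted genes and neighbours of the domains, 48 were measured. In XY-KO against XY-WT 1 was called, Smoc1, a secreted calcium-binding protein, at -0.79 (adjusted p = 0.0138, limma, authors' deposited table). That is 2.08% of the list beside 2.27% of all genes. Of the 48, 9 were higher and 7 lower in XX-WT against XY-WT, which is 33.3% beside 23.3% of all genes. Between XY-KO and XX-WT 9 were higher and 10 lower, which is 39.6% beside 18.3% of all genes. The medians of the 48 were 0.013, -0.028 and -0.027. The smallest adjusted p in XX-WT belonged to Xist and its antisense Tsix, the pair at the X inactivation centre, at 9.62 and 9.29, followed by Adam23 at -2.55 and Inpp5f at 1.21 (deposited table). Xist and Tsix both count in the shares above, with the same limit on strand as for Kcnq1ot1. Xist, Adam23, Tsix and Asb4 led in XY-KO against XX-WT, at -9.58, 3.14, -10.00 and 1.13 in the authors' deposited table.

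Factors that keep or erase imprints were counted from a list of 33, of which 30 were measured. In XY-KO against XY-WT 0 were called by limma, with 5 at an unadjusted p under 0.05, beside 2.27% of all genes called. Of the 30, 3 were higher and 2 lower in XX-WT against XY-WT, which is 16.7% beside 23.3% of all genes. Between XY-KO and XX-WT 2 were higher and 2 lower, which is 13.3% beside 18.3% of all genes. The medians of the 30 were -0.018, 0.033 and -0.048. The demethylase gene Tet3 had -0.55 (adjusted p = 0.00596) and the histone demethylase gene Kdm1b had 0.59 (adjusted p = 0.00853) in XX-WT in the authors' deposited table. Uhrf1, needed to copy DNA methylation at replication, had -0.50 (adjusted p = 0.0243), and the chromatin remodeller gene Hells had 0.55 (adjusted p = 0.0306, deposited table). In XY-KO against XX-WT the leading members were Zfp57 (0.62), Kdm1b (-0.60), Hells (-0.71) and Tet3 (0.44), with deposited adjusted p-values of 0.00876, 0.0092, 0.00927 and 0.031. These factors are also expressed in germ cells, whose markers differed between ovary and testis as given above.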

How the data were processed

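RNA from 9 gonad samples was column-purified, amplified by the SPIA method and sequenced as read pairs of 150 nt, per the labels' protocols. Among the submitters' processing notes, with no role or order given, are the genome GRCm38 and the tools limma 3.24.0, HTSeq 0.6.1p1, TopHat2 2.0.8 and Trimmomatic 0.30. The amplification and any filter on low genes could move low values; the filter is not given in the sources used here. The authors deposited 3 tables of 15300 genes, 1 per comparison. Per the file headers they hold the authors' log2 fold change and mean log2 expression, the authors' limma scores (a t score and a log-odds score), and the authors' p-value and Benjamini-Hochberg adjusted p-value.

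Recomputed adjusted p-values matched the deposited ones within a relative difference of 0.000769, and the 3 log2 fold changes added up within 0.005. The SE is fold change over t, and 95% intervals use the 15.27 degrees of freedom at which t gives p in all 3 tables. Group levels assume equal weights. Positions and exon lengths come from GENCODE M21 on GRCm38, which annotated 15192 of the genes. The recomputation, in Python 3.11.15 with scipy 1.17.1 for distributions, pandas 2.3.3 for tables and statsmodels 0.14.6 for the trend (robust regression on GC content and length of the longest transcript, polynomials of degree 3), was tested on simulated data.

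All measured members are named, with derived levels for those called in at least 1 comparison or in a domain with oppositely expressed alleles. Each called fold change of a member is given, and those without a call are not all printed. Of each further list, cell type markers aside, the genes called in XY-KO against XY-WT are named and, for the other comparisons, the 4 with the smallest adjusted p. The members, lists and tests were chosen with earlier results of these data known. Alternatives were other thresholds, other adjustments, a fitted trend with GC content and length, and centring.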

Additional observations from a re-analysis of the deposited data

How the results depend on the processing

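The count of members called in XY-KO against XY-WT, 2 as reported, was 1 at an adjusted p under 0.01, 5 at an adjusted p under 0.1, 5 with the Benjamini-Hochberg adjustment over the 3 comparisons together, 0 with a 2-fold limit and 0 with Bonferroni adjustment. The 5 were Meg3, Mirg, Cdkn1c, Kcnq1ot1 and Airn, all higher. In XX-WT against XY-WT, 13 became 5 with a 2-fold limit and 3 with Bonferroni adjustment, beside 12.0% and 4.10% of all genes. In XY-KO against XX-WT 15 became 2 under each, beside 10.1% and 3.14% of all genes, so with the 2-fold limit the members' share lay below the all-gene share. The calls over all genes in XY-KO against XY-WT, 347 as deposited, were 139, 725, 922, 190 and 55 under the same 5 settings. With the GC content and length trend subtracted, 11 of the 13 calls in XX-WT against XY-WT and all 15 in XY-KO against XX-WT were shared. That setting also gained calls in XX-WT against XY-WT, Igf2 higher (0.62) and Rian lower (-0.55). Subtracting the all-gene median changed no call of a member, and no called member reversed under any setting run.

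The difference of the class medians, paternal minus maternal, moved in XY-KO against XY-WT to -0.18 with the trend subtracted. Leaving Grb10 out moved it to -0.39 in XX-WT against XY-WT and to 0.34 in XY-KO against XX-WT. In the last comparison it was -0.20 with Gnas counted as maternal and -0.31 without members below the median expression, against 0.046 as reported. The cause of these shifts was not tested beyond the fewer or added genes that each setting uses. No paired analysis was possible because the tables hold comparisons of groups and no values of single samples. Leaving out each replicate was not run for the same reason, and without counts no depth limit could be computed.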
